A study of Mus musculus with 6 samples.

Results

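The troponin genes of the mouse were followed in whole embryonic hearts: the 3 troponin I genes Tnni1, Tnni2 and Tnni3, the 3 troponin T genes Tnnt1, Tnnt2 and Tnnt3, and the troponin C genes Tnnc1 and Tnnc2. They were chosen by symbol, and all 8 were found among the 46983 genes of the deposited table. The study used E13.5 embryos on a mixed C57BL/6 and DBA/2 background and sequenced RNA of 3 mutant and 3 control hearts. The mutants carried TnnT2Cre together with Wt1flox alleles, given in the methods as Tnnt2 Cre/+; Wt1 flox/flox. Controls, labelled wild type and named so here, also had both Wt1 alleles floxed but lacked Cre. Cre came from a transgene under Tnnt2 regulatory sequence, which acts in the myocardium from early stages and, according to the study, also in some epicardial cells. Because a gene of the same name drives Cre, the level of Tnnt2 in both genotypes is one property of this model. The Cre transgene itself was not analysed here.

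Troponin is the calcium switch of striated muscle. Troponin C binds calcium, troponin I inhibits the interaction of actin with myosin, and troponin T anchors the complex on tropomyosin along the thin filament. Each subunit has cardiac and skeletal genes. Tnnt2 is the cardiac, Tnnt1 the slow skeletal and Tnnt3 the fast skeletal troponin T. Tnni3 is the cardiac and Tnni2 the fast skeletal troponin I, while Tnni1, the slow skeletal form, is also the main troponin I of the fetal heart and is replaced there by Tnni3 around and after birth. Tnnc1 serves the heart and slow muscle, and Tnnc2 serves fast muscle.

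The troponin I genes are shown first because the fetal heart makes both of its forms at once. The first 120 coding bases of each principal transcript in GENCODE M21 (GRCm38) are given 5′ to 3′, with the start codon in capitals. In Tnni3 the second run of capitals, which begins at codon 20, marks the codons of the protein kinase A site in the extension particular to the cardiac protein. No such run was found in the same window of the others.

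Tnni1: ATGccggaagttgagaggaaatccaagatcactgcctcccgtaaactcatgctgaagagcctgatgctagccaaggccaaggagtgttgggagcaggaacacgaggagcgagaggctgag
Tnni2: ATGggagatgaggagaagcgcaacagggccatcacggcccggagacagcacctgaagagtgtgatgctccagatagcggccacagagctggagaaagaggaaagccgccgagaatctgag
Tnni3: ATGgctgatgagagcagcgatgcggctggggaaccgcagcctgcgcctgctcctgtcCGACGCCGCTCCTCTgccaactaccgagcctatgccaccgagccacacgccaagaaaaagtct

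The coding parts had 187 codons in Tnni1, 182 in Tnni2 and 211 in Tnni3. The longest stretch of bases shared exactly between any pair of genes for the same subunit was 14 to 22 bases, against reads of 150 bases, so that reads of these genes can be told apart. Tnni3 shared 86 exon bases, 4.17% of its annotated exon bases, with Dnaaf3 on the same strand.

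The 250 bases upstream of the start of the RefSeq entry used are given for the Cre driver's namesake Tnnt2, for its neighbour Tnni1 and for Tnnt1, whose values differed most between the genotypes. These RefSeq sequences (GRCm38.p6) run 5′ to 3′ on the strand of the gene, at chr1:135836084-135836333 (plus) for Tnnt2, chr1:135799171-135799420 (plus) for Tnni1 and chr7:4515976-4516225 (minus) for Tnnt1. The windows of Tnni1 and Tnnt1 lie inside the GENCODE spans of these genes given below, which begin at starts farther upstream. Capitals mark matches to motifs of muscle factors. Whether the transgene holds this stretch is not given in the sources used here.

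Tnnt2: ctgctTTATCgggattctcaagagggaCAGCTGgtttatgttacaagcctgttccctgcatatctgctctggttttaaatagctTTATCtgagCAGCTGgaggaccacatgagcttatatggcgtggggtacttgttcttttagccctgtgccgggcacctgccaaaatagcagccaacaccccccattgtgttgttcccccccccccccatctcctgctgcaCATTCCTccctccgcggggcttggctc
Tnni1: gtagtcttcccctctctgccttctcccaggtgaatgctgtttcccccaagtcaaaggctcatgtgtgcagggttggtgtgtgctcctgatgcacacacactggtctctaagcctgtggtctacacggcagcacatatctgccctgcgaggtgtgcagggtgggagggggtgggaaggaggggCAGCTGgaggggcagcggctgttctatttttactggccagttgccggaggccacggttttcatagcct
Tnnt1: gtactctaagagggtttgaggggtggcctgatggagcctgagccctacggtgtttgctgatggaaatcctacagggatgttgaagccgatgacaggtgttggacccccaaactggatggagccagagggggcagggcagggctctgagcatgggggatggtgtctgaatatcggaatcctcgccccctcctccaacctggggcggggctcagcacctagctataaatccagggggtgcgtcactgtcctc

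Both strands were searched for the M-CAT motif CATTCCT, bound by TEAD factors, for GATAA, for the E-box CAGCTG, and for the MEF2 and CArG motifs by name. The Tnnt2 stretch held the M-CAT motif 27 to 21 bases upstream of the start, a motif found in 4.51% of 32851 promoters of that length. It also held GATAA on the reverse strand at 245 to 241 and 166 to 162 bases upstream (22.6% of promoters had one) and the E-box at 223 to 218 and 157 to 152 bases upstream (13%). Tnni1 held the E-box at 68 to 63 bases upstream. None of these motifs was found in the window of Tnnt1, Tnni3, Tnnc1 or Tnnc2, and the promoters of Tnni2 and Tnnt3 were not analysed here. The matches describe letters and not binding.

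The hearts had 44244665 to 56373393 counts, and the 8 genes together took 0.765% to 0.869% of them. All 10 cardiomyocyte markers were detected in all 6 hearts, the lowest value being that of Nppa at 85.3 CPM (counts scaled to library size with TMM). Wt1, counted over its whole length, was at 40.0, 32.9 and 20.0 CPM in wild type replicates 2, 3 and 5 and at 17.7, 33.3 and 35.7 CPM in mutant replicates 1, 5 and 10. Its floxed part is not told apart in this count, so that it is no check of the labels. Some libraries stood apart. Wild type replicate 3 held RNA of liver markers (summed 778 CPM, against 2.57 to 21.7 in the others) and of skeletal muscle markers (99.9 CPM, against 23.1 to 26.1), and wild type replicate 5 and mutant replicate 10 held more erythroid RNA (37136 and 39064 CPM, against 11527 to 14561). In wild type replicate 5 short genes were counted high and long genes low relative to the other hearts (Spearman's rho of deviation with length -0.556 across 11795 genes, which are not independent replicates). Mutant replicate 5 (rho 0.464) and wild type replicates 2 (0.383) and 3 (0.316) had the opposite trend, and mutant replicates 1 and 10 had little (-0.0062 and -0.0622). The detected troponin genes are short, at 613 to 1263 bases of deposited length against a median of 1913, so that their values are also given with each heart's trend removed. In whole hearts, fewer cells of a type and less RNA per cell cannot be told apart.

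Tnnt2, Tnni1, Tnni3 and Tnnc1 were abundant, with fitted log2 fold changes (mutant over wild type) of 0.00 to 0.15, whereas the skeletal genes Tnnt1, Tnni2 and Tnnt3 were lower on average in the mutants, by amounts that did not pass the test. Of the 7 genes tested, none passed the threshold of 0.05 on the adjusted p of edgeR's quasi-likelihood fit, which called 0% of the 17473 genes tested. DESeq2 called none of them either, against 0.69% of its genes. Tnnt1 was the 1 member with an unadjusted p under 0.05 in edgeR, against 5.73% of all genes (2.59% for those lower in the mutants). The wild type and mutant hearts did not overlap for 2 of the 7, Tnnt2 and Tnnt1, against 11.2% of all genes tested (6.61% with the mutants higher, as for Tnnt2, and 4.59% with the mutants lower, as for Tnnt1).

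**Figure D1:**
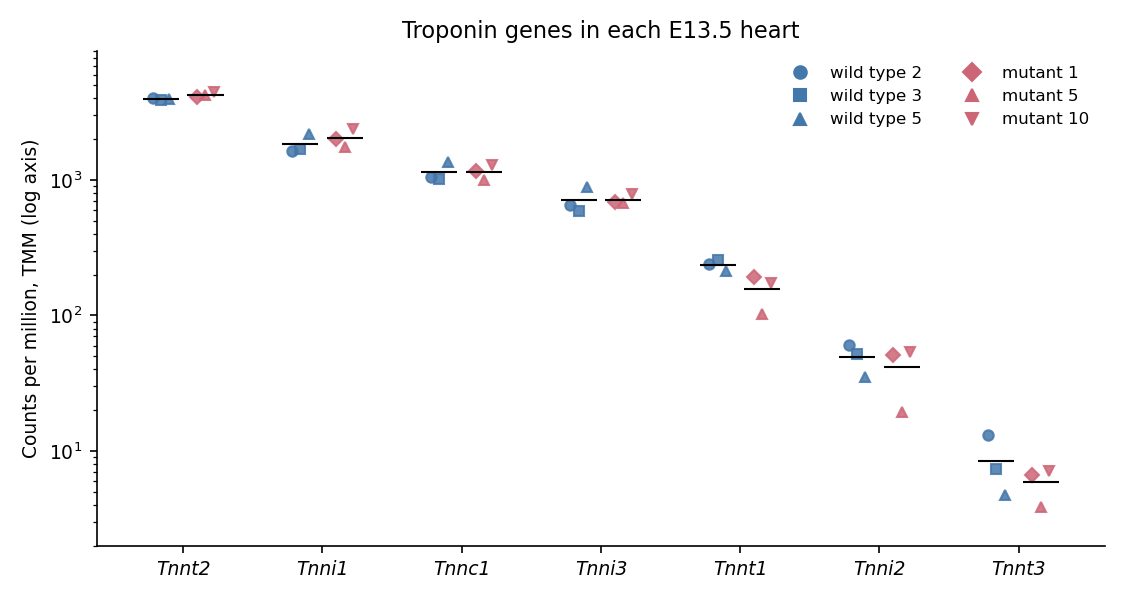
TMM-scaled CPM (log axis) of the 7 detected troponin genes in each heart, wild type in blue and mutant in red, with a line at each group's mean and a symbol for each replicate. Tnnt2 lay between 3875 and 4483 in all hearts, and the skeletal genes Tnnt1, Tnni2 and Tnnt3 had their lowest value in mutant replicate 5.

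Per kilobase of the deposited gene length, the order of the mean levels over the 6 hearts was Tnnt2 (3257 FPKM), Tnni1 (2011), Tnnc1 (1755), Tnni3 (1160.1), Tnnt1 (278), Tnni2 (62.3) and Tnnt3 (8.23). The ranges of Tnni1 (1724 to 2340.0 FPKM) and Tnnc1 (1533 to 2074 FPKM) overlapped across hearts, although Tnni1 was the higher in 6 of 6 hearts. No other neighbours in the order overlapped. The order rests on the length chosen: the deposited length of Tnnt2 was 1263 bases while its annotated exons cover 7752. Per kilobase of all annotated exon bases Tnnc1 came first (1104 FPKM), followed by Tnni1 (538), Tnnt2 (531) and Tnni3 (345), and the order of Tnnt1, Tnni2 and Tnnt3 below them was kept. The length is fixed for each gene, so that the fold change of a gene as counted does not depend on it. The size of a share or ratio of several genes does. Values with the length trend removed also depend on it, since each heart's trend was read at the gene's deposited length.

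Tnnt2, at chr1:135836354-135852260 on the plus strand, varied least over the hearts, as counted, among the 7 genes detected. It had 4009.6, 3875 and 3995 CPM in wild type replicates 2, 3 and 5 and 4134, 4215 and 4483 CPM in mutant replicates 1, 5 and 10. Every mutant heart was above every wild type heart, by a small margin. The means were 3960.0 ± 73.9 and 4277 ± 183 CPM (SD, n = 3 each), a log2 fold change of 0.11 ± 0.12 (SE) with an adjusted p of 0.985 in edgeR's quasi-likelihood test. The 95% interval ran from 0.891 to 1.31 fold. With the length trend removed the groups overlapped, since wild type replicate 2 had 4117 CPM and mutant replicate 1 had 4113. Over the 6 hearts its highest value was 1.16 times its lowest, against 1.37 to 3.41 times for the other detected members. With the length trend removed this was 1.15 times for both Tnnt2 and Tnnc1.

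Tnnt1, the slow skeletal troponin T, at chr7:4504570-4516382 on the minus strand, had the largest difference. Its levels were 239, 258 and 212 CPM in wild type replicates 2, 3 and 5 and 193, 102 and 174 CPM in mutant replicates 1, 5 and 10. All mutant hearts lay below all wild type hearts, with mutant replicate 5 at the bottom. The means were 236 ± 23.2 and 156 ± 48.0 CPM (SD, n = 3 each), a log2 fold change of -0.60 ± 0.22 (SE). The adjusted p was 0.797 in edgeR and 0.362 in DESeq2, so that it did not pass the threshold. The 95% interval of the log2 fold change before adjustment was -1.11 to -0.09. Leaving out mutant replicate 5 gave a log2 fold change of -0.37, and leaving out wild type replicate 3 gave -0.52, the latter being the heart with skeletal muscle and liver RNA. With the length trend removed it was -0.58, and the groups then overlapped, with wild type replicate 5 at 173 CPM between mutant replicates 10 (169.9 CPM) and 1 (190.1 CPM).

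Tnnt3, the fast skeletal troponin T, at chr7:142498836-142516009 on the plus strand, was the lowest gene detected. It had 13.1, 7.34 and 4.77 CPM in wild type replicates 2, 3 and 5 and 6.66, 3.83 and 7.09 CPM in mutant replicates 1, 5 and 10. The groups overlapped, and wild type replicate 2 alone lay above the rest. With the length trend removed its lowest values were 4.11 CPM in wild type replicate 5 and 4.13 CPM in mutant replicate 5. Tnnt3 had a log2 fold change of -0.52 ± 0.37 (SE), with an adjusted p of 0.979 in edgeR, and it was -0.05 without wild type replicate 2.

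Among the troponin I genes the fetal form Tnni1, at chr1:135779434-135810989 on the plus strand, had 1638, 1696 and 2190.3 CPM in wild type replicates 2, 3 and 5 and 1996, 1763 and 2381 CPM in mutant replicates 1, 5 and 10. The groups overlapped, with mutant replicate 10 and wild type replicate 5 highest. Tnni1 had a log2 fold change of 0.15 ± 0.17 (SE), with an adjusted p of 0.985 in edgeR and a 95% interval of 0.847 to 1.46 fold. Without wild type replicate 5 it was 0.30, with an adjusted p of 0.410.

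Tnni3, the adult cardiac form, lies at chr7:4518305-4524229 on the minus strand. It had 653, 587 and 889 CPM in wild type replicates 2, 3 and 5 and 685, 672 and 791 CPM in mutant replicates 1, 5 and 10. The same hearts were highest as for Tnni1, and the mutant values lay inside the wild type range. Tnni3 had a log2 fold change of 0.01 ± 0.17 (SE), with an adjusted p of 0.996 in edgeR and a 95% interval of 0.767 to 1.33 fold. Its sign turned when wild type replicate 2, wild type replicate 3 or mutant replicate 10 was left out.

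Tnni2, the fast skeletal form, at chr7:142441808-142444410 on the plus strand, had 60.3, 52.1 and 34.9 CPM in wild type replicates 2, 3 and 5 and 51.3, 19.4 and 53.7 CPM in mutant replicates 1, 5 and 10. The groups overlapped, and mutant replicate 5 was lowest. Tnni2 had a log2 fold change of -0.25 ± 0.36 (SE), with an adjusted p of 0.985 in edgeR, and it turned to 0.09 without mutant replicate 5.

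Tnnc1, the calcium-binding subunit of heart and slow muscle, at chr14:31208312-31211729 on the plus strand, had 1061, 1026 and 1366 CPM in wild type replicates 2, 3 and 5 and 1173, 1000.1 and 1285 CPM in mutant replicates 1, 5 and 10. The groups overlapped throughout. Tnnc1 had a log2 fold change of 0.00 ± 0.16 (SE; 0.0023 before rounding), with an adjusted p of 0.9995 in edgeR and a 95% interval of 0.777 to 1.29 fold, and its sign turned under 7 of 14 other settings.

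Tnnc2, its fast skeletal counterpart at chr2:164777161-164779967 on the minus strand, had 0 counts in all 6 hearts and was not tested. A count of 0 allows up to 3 counts, or 0.0532 to 0.0678 CPM per heart, for counting error only. Of its 800 exon bases, 592 (74%) are shared with Ube2c on the opposite strand, and the strand setting of the counting is not given in the sources used here. Whether reads of Tnnc2 were lost to this overlap was not tested.

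**Figure D2:**
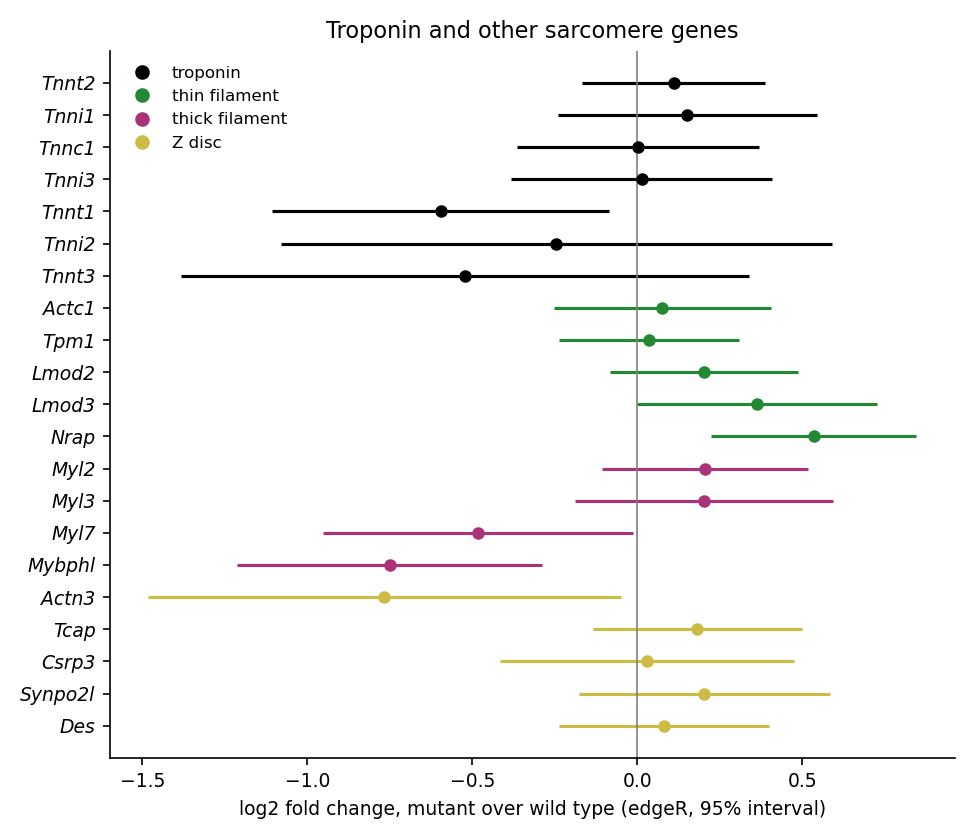
The log2 fold change of mutant over wild type with its 95% interval (edgeR) for the 7 tested troponin genes (black) and for the thin filament, thick filament and Z disc genes named by rule (colours). The cardiac troponin genes lay near 0, between 0.00 and 0.15, and Tnnt1 was at -0.60.

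The isoform shares were next compared, since a share within a heart does not depend on its depth. The exact two-sided permutation test used for them cannot give a p below 0.1 with 3 against 3 hearts. The fetal form made up 61.5%, 64.8% and 61.1% of the summed FPKM of Tnni1 and Tnni3 in wild type replicates 2, 3 and 5 and 64.9%, 62.5% and 65.7% in mutant replicates 1, 5 and 10. Both genotypes thus held more Tnni1 than Tnni3 RNA per kilobase, and the groups overlapped. The means were 62.4% ± 2.03 and 64.4% ± 1.66 (SD, n = 3 each), a difference of 1.95 percentage points (exact two-sided permutation test, p = 0.2, adjusted p = 0.6 over 6 quantities). With the length trend removed this difference was 1.22 percentage points (exact two-sided permutation test, p = 0.5).

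Tnnt1 was 9.57%, 10.6% and 8.63% of the troponin T FPKM in wild type replicates 2, 3 and 5 and 7.67%, 4.13% and 6.47% in mutant replicates 1, 5 and 10. The groups did not overlap. The means were 9.60% ± 0.983 and 6.09% ± 1.80 (SD, n = 3 each), a difference of -3.51 percentage points with the smallest p that the design allows (exact two-sided permutation test, p = 0.1, adjusted p = 0.6). With the length trend removed the difference was -3.37 percentage points (exact two-sided permutation test, p = 0.2).

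The fast skeletal genes were minor. Tnni2 was 1.27% to 2.92% of troponin I FPKM in wild type and 0.902% to 2.17% in mutant hearts, and Tnnt3 was 0.158% to 0.427% and 0.127% to 0.216% of troponin T FPKM. Both had p = 0.4 in the exact permutation test and overlapping groups. The balance of the subunits was read from their sums. The ratio of summed troponin I to troponin T FPKM was 0.902 ± 0.161 in wild type and 0.924 ± 0.0807 in mutant hearts, and that of troponin C to troponin T was 0.505 ± 0.0832 and 0.486 ± 0.0419 (SD, n = 3 each; exact permutation test, p = 0.8 for both). In each ratio wild type replicate 5 was highest, at 1.09 and 0.601. The size of both ratios, and so which subunit was in excess, rests on the deposited lengths. Per kilobase of all annotated exon bases the mean was 1104 FPKM for Tnnc1 and 531 for Tnnt2, against 1755 and 3257 here.

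**Figure D3:**
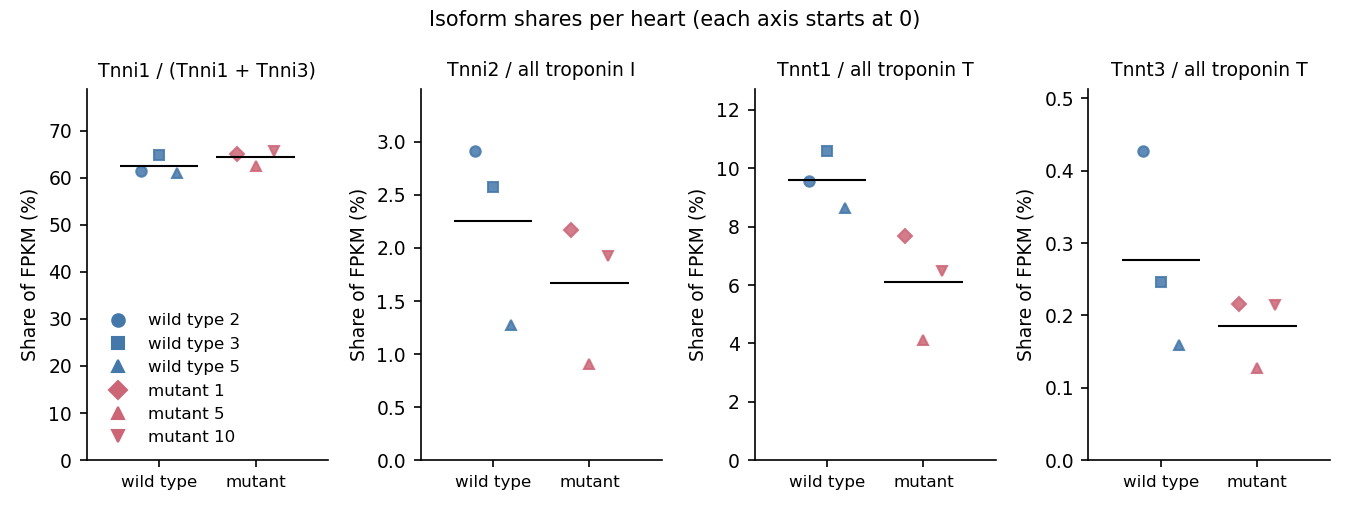
Share of each named isoform in the summed FPKM of its subunit's genes, in percent, for each heart, with a line at the group mean and each axis starting at 0. The Tnnt1 share was 8.63% to 10.6% in wild type and 4.13% to 7.67% in mutant hearts, while the other shares overlapped.

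As counted, Tnni1, Tnni3 and Tnnc1 varied together among hearts. On log2 CPM centred on each gene's mean over the 6 hearts, the root mean square difference was 0.08 between Tnni3 and Tnnc1, 0.09 between Tnni1 and Tnnc1 and 0.11 between Tnni1 and Tnni3. All 3 were higher in wild type replicate 5 and mutant replicate 10 than in the other hearts, the hearts with the most erythroid RNA. The fitted length trend alone raised Tnni3 in wild type replicate 5 by 0.34, Tnnc1 by 0.32, Tnni1 by 0.17 and Tnnt2 by 0.07 on the log2 scale. With it removed, the coefficient of variation over the hearts fell from 15.2% to 7.52% for Tnni3, from 12.9% to 5.51% for Tnnc1 and from 15.3% to 10.8% for Tnni1. It did not fall for Tnnt2 (5.19% and 5.50%) or for Tnnt1 (28.1% and 30.9%).

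With the trend removed, the log2 fold changes were 0.18 ± 0.12 for Tnni1, 0.10 ± 0.11 for Tnni3 and 0.07 ± 0.10 for Tnnc1 (SE), and the adjusted p-values in edgeR were 0.859, 0.930 and 0.951. The errors were thus smaller and the calls did not change. Tnnc1 then varied most like Tnnt2, with a root mean square difference of 0.06 in place of 0.16. Tnni3 and Tnnt2 differed by 0.07 in place of 0.18, and Tnni3 and Tnnc1 by 0.08 in both cases. Tnni1 came no closer to Tnnc1 (0.10 in place of 0.09) or Tnni3 (0.12 in place of 0.11), and its difference from Tnnt2 was 0.12 in place of 0.16.

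**Figure D4:**
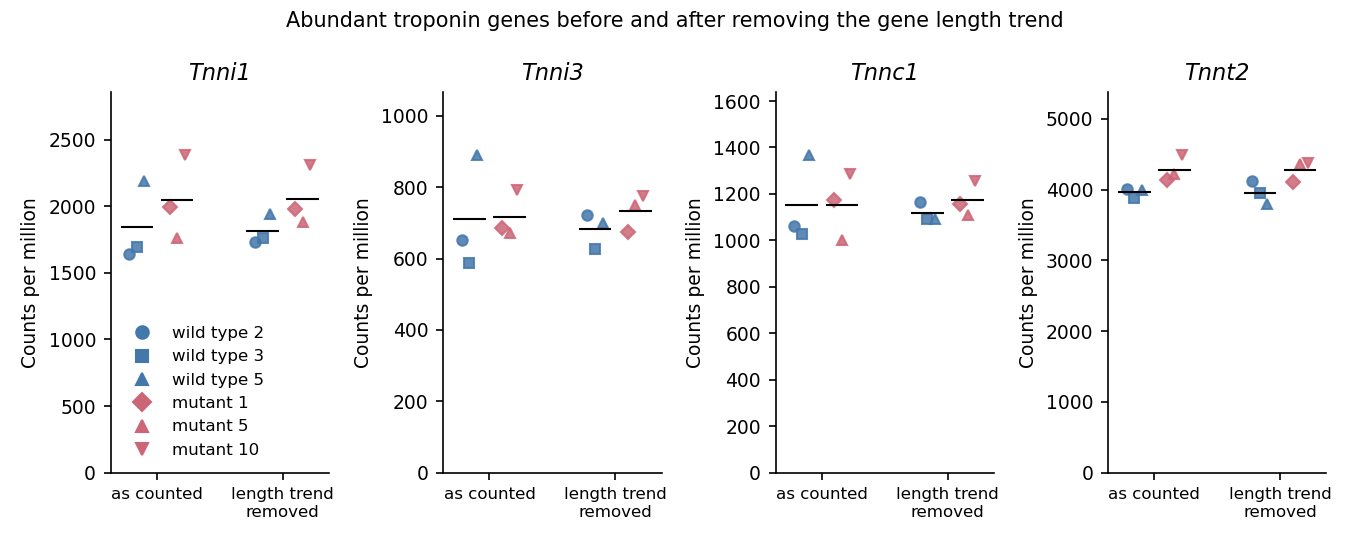
CPM of Tnni1, Tnni3, Tnnc1 and Tnnt2 in each heart as counted and after the heart's trend with gene length was removed, with a line at each group's mean. Wild type replicate 5 (blue triangle) moved from 889 to 700 CPM for Tnni3 and from 1366 to 1093 CPM for Tnnc1, into the range of the other hearts.

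The skeletal genes varied otherwise among hearts, each in an order of its own, although all were lowest in mutant replicate 5 as counted. Tnni2 and Tnnt3 had a root mean square difference of 0.30 on the same scale, Tnni2 and Tnnt1 of 0.31, and Tnnt1 and Tnnt3 of 0.40, against 0.44 to 0.65 between any of the skeletal and any of the cardiac genes. These are descriptions over 6 hearts that share their library with each other gene. The measure also grows with how much a gene varies. As counted, the coefficient of variation was 28.1% to 45.3% for the skeletal genes and 5.19% to 15.3% for the cardiac genes. The skeletal muscle markers differed in their order of hearts. Actn3, a fast muscle actinin, was at 7.14, 7.79 and 4.29 CPM in wild type replicates 2, 3 and 5 and at 3.04, 2.90 and 5.39 CPM in mutant replicates 1, 5 and 10, and like the skeletal troponin genes it was lowest in mutant replicate 5. Myog, a factor of skeletal muscle differentiation, was at 2.65, 20.3 and 2.39 CPM in wild type replicates 2, 3 and 5 and at 1.71, 1.83 and 0.815 CPM in the mutants. Myh3, the embryonic skeletal myosin, was at 27.4 CPM in wild type replicate 3 and at 1.26 to 2.73 CPM elsewhere, although Tnni2 and Tnnt3 were higher in wild type replicate 2 than in replicate 3. Of the 15 skeletal muscle markers, 13 were in the table and 10 were tested. Their median log2 fold change was -1.31, and 4 had an unadjusted p under 0.05 in edgeR, all lower in the mutants, against 2.59% of all genes tested, and wild type replicate 3 was above the other hearts in their sum. Myod1 had a log2 fold change of -3.16 ± 1.07, Myog of -2.54 ± 0.84, Myh8 of -2.14 ± 0.85 and Mylpf of -0.28 ± 0.31 (SE), and none of the markers passed the threshold in edgeR or DESeq2, which gave Myod1 and Myh3 no adjusted p. Without wild type replicate 3 these log2 fold changes were -0.96, -0.79, -0.51 and 0.21, and the median of the list was -0.29. The part of skeletal muscle RNA in the Tnnt1 difference was not tested, beyond the value without that heart.

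The troponin genes lie in pairs of an I and a T gene. Tnni1 and Tnnt2 on chromosome 1 are 25.4 kb apart, Tnni2 and Tnnt3 on chromosome 7 54.4 kb, and Tnnt1 and Tnni3 on chromosome 7 1.92 kb, with no annotated gene between them. Within the last pair the log2 fold changes were -0.60 for Tnnt1 and 0.01 for Tnni3. Between Tnni2 and Tnnt3 lies Lsp1, an actin-binding protein of leukocytes and endothelium, which is named here after its values were seen. Lsp1 had 75.0, 68.0 and 87.5 CPM in wild type replicates 2, 3 and 5 and 38.3, 39.3 and 40.8 CPM in mutant replicates 1, 5 and 10. On the log2 scale Lsp1 differed by -0.96 ± 0.12 (SE), with an adjusted p of 0.0991 in edgeR, the smallest of all genes tested, and of 6.03e-09 in DESeq2. It fell in DESeq2 and missed the threshold in edgeR, and with the length trend removed edgeR gave an adjusted p of 0.0478. Lad1, between Tnni1 and Tnnt2, was at 2.48 to 4.60 CPM in all hearts, with a log2 fold change of -0.39 ± 0.22 (SE) and an adjusted p of 0.946 in edgeR.

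The other sarcomere genes were read beside the members as 3 lists. None of the 17 thin filament, 17 thick filament and 13 tested Z disc genes passed the threshold in edgeR or DESeq2, and 1, 2 and 1 of them had an unadjusted p under 0.05 in edgeR, against 5.73% of all genes tested. Their median log2 fold changes were 0.10, 0.08 and 0.10, against -0.00 (-0.0010 before rounding) over all genes tested and 0.0023 over the troponin genes. The groups did not overlap for 1 thin filament and 1 thick filament gene, against 11.2% of all genes tested.

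In the thin filament the most abundant were Actc1, cardiac actin, with a log2 fold change of 0.08 ± 0.14, and Tpm1, the tropomyosin on which troponin sits, with 0.04 ± 0.12 (SE). The smallest p was that of Nrap, which takes part in myofibril assembly. Nrap had 79.6, 84.9 and 67.6 CPM in wild type replicates 2, 3 and 5 and 95.7, 124 and 117 CPM in mutant replicates 1, 5 and 10. Wild type and mutant hearts did not overlap. Nrap differed by 0.54 ± 0.14 (SE) on the log2 scale, with an adjusted p of 0.488 in edgeR. Lmod2 and Lmod3, the leiomodins that nucleate actin, had 0.20 ± 0.12 and 0.36 ± 0.16 (SE; adjusted p = 0.962 and 0.874 in edgeR).

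In the thick filament Myl2 and Myl3, ventricular myosin light chains, had log2 fold changes of 0.21 ± 0.14 and 0.20 ± 0.17 (SE). The smallest p-values belonged to genes of atrial muscle, Mybphl and Myl7. Other atrial genes of this list differed less. Myl4, an atrial light chain, had a log2 fold change of 0.02 ± 0.16 (SE). Myh6, the atrial myosin heavy chain before birth, had -0.30 ± 0.26 (SE). The groups overlapped for Myl4 and for Myh6. Mybphl had 32.9, 22.9 and 34.6 CPM in wild type replicates 2, 3 and 5 and 20.7, 13.8 and 19.3 CPM in mutant replicates 1, 5 and 10, and its groups did not overlap. The log2 fold change was -0.75 ± 0.20 (SE), with an adjusted p of 0.548 in edgeR. Myl7 had 1432, 1135 and 1742 CPM in wild type replicates 2, 3 and 5 and 1092, 799 and 1192 CPM in mutant replicates 1, 5 and 10, with a log2 fold change of -0.48 ± 0.20 (SE) and an adjusted p of 0.860 in edgeR. For both genes, as for Tnnt1, mutant replicate 5 was lowest. How much atrial tissue each heart held was not measured, and its part in these values was not tested.

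In the Z disc Actn3 had a log2 fold change of -0.77 ± 0.31, Tcap had 0.18 ± 0.14, Synpo2l 0.20 ± 0.17, Csrp3 0.03 ± 0.19 and Des, the muscle intermediate filament, 0.08 ± 0.14 (SE). The smallest adjusted p in the list was 0.843 in edgeR.

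The markers of other cells were read in the same way. None of the 10 cardiomyocyte markers passed in edgeR (3 had an unadjusted p under 0.05, against 5.73% of all genes), and 1 did in DESeq2, against 0.69%: Casq2, the calcium store protein, which had 141, 152 and 212 CPM in wild type replicates 2, 3 and 5 and 221, 414 and 292 CPM in mutant replicates 1, 5 and 10 (log2 fold change 0.88 ± 0.25, SE; adjusted p = 0.0365 in DESeq2 and 0.585 in edgeR). The cardiomyocyte markers summed to 9939.5 to 11637 CPM in wild type and 9947 to 11131 in mutant hearts, so that the sums overlapped. Pln, a regulator of calcium uptake, had 0.42 ± 0.15, and Myl4, an atrial light chain, 0.02 ± 0.16 (SE).

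Smooth muscle markers summed to 1553 to 1705 and 1553 to 1752 CPM, with Acta2 at 0.08 ± 0.14, Tagln at 0.03 ± 0.15, Smtn at -0.14 ± 0.11 and Actg2 at 0.54 ± 0.48 on the log2 scale (SE). Epicardial markers summed to 201 to 437 and 248 to 486 CPM. Among them Upk1b had 0.96 ± 0.29, Msln 0.61 ± 0.25, Lrrn4 0.94 ± 0.45, Upk3b 0.18 ± 0.37 and Tbx18 -0.10 ± 0.16 (SE). Of the 7 epicardial markers, 4 had a log2 fold change above 0 and 3 had one below 0. Endothelial markers summed to 812 to 1206 and 1069 to 1344 CPM. The lowest sum was that of wild type replicate 5, where long genes were counted low. All 7 had a log2 fold change above 0, against 8699 of the 17473 genes tested. From these 7, Emcn (0.25 ± 0.10), Npr3 (0.33 ± 0.16), Pecam1 (0.26 ± 0.15) and Tie1 (0.19 ± 0.13, SE) are named by rule. No smooth muscle, epicardial or endothelial marker passed the threshold in edgeR or DESeq2, and 0, 2 and 1 of the 7 in each list had an unadjusted p under 0.05 in edgeR, against 5.73% of all genes. Among erythroid markers Hba-a1 had 0.25 ± 0.63, Hbb-y -0.11 ± 0.46 and Alas2 0.19 ± 0.54 (SE), none of which passed in either test or had an unadjusted p under 0.05 in edgeR. The 5 liver markers tested had a median of -4.32, Alb being at 303 CPM in wild type replicate 3 and at 0 to 6.57 CPM elsewhere. Alb had -8.12 ± 2.47, Afp -4.59 ± 2.30, Apoa1 -4.32 ± 1.85 and Ttr -3.18 ± 1.25 (SE). None passed in edgeR, where 3 had an unadjusted p under 0.05, against 5.73% of all genes, and DESeq2 gave none of the 5 an adjusted p. Without wild type replicate 3 the 4 log2 fold changes were -3.14, 0.41, 0.51 and -0.05.

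The genes whose pattern over the 6 hearts was most like that of Tnnt2 were Mul1, Grb2, Bak1, Cpped1 and Vasp, with root mean square differences of 0.01 to 0.02 on centred log2 CPM among 10105 genes with a mean of at least 10 CPM. For Tnni1 they were 1110007C09Rik, Myl3, 3110040N11Rik, Cox6b1 and Coq9 (0.02 to 0.05). Tnnc1 ranked 95 and Tnni3 ranked 351 for likeness to Tnni1, and Tnnt2 ranked 1827. A gene that varies little lies close to any other such gene on this measure.

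**Figure D5:**
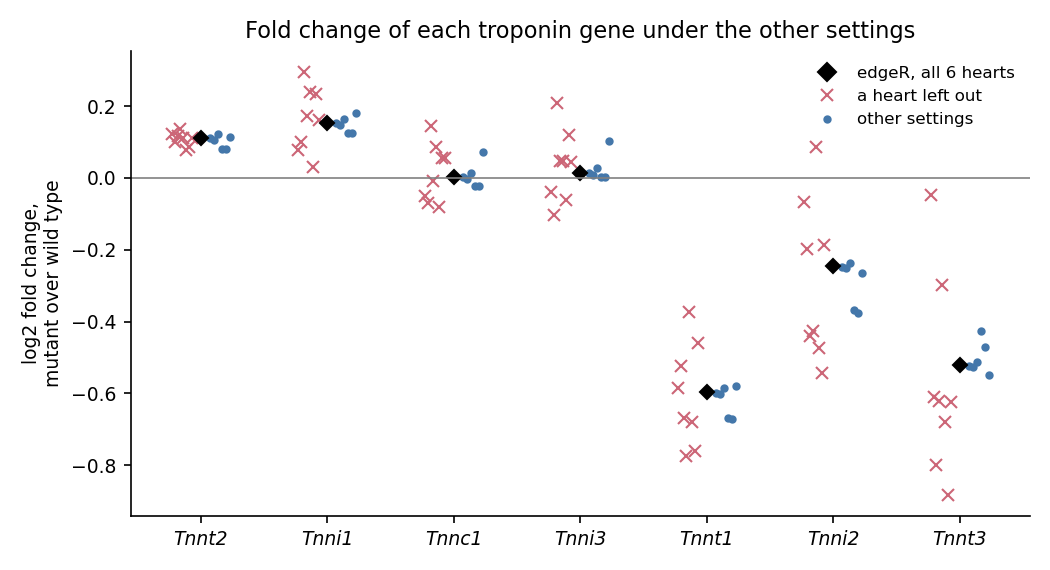
The log2 fold change of mutant over wild type of each troponin gene in edgeR with all 6 hearts (black diamonds), with a heart left out (crosses, including those with the length trend also removed) and under the other settings with all hearts (dots). Tnnt2 stayed between 0.08 and 0.14 and Tnnt1 between -0.77 and -0.37, while Tnni2, Tnni3 and Tnnc1 took both signs.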

How the data were processed

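RNA of whole hearts, 1 heart per library, was sequenced as paired reads. According to the methods, the authors trimmed the reads with Trim Galore, aligned them with RNA STAR to mm10, counted uniquely mapped reads per gene with featureCounts on GENCODE M19, and used DESeq2; the submitters' processing notes name HTSeq and DESeq2. The deposited counts were not normalized. In the deposited FPKM, whose making is not described, each value equals the count divided by 1 fixed length per gene and the heart's total. A further table of group means was not used.

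Counts were tested with edgeR 4.0.16 (R 4.3.3; TMM, filterByExpr with a minimum count of 10 and total of 15, quasi-likelihood, two-sided, Benjamini-Hochberg over all genes, adjusted p under 0.05). Shares of FPKM were compared by exact permutation tests. Alternatives were DESeq2 1.42.0, its size factors, no filter, limma 3.58.1 trend on log2(FPKM + 1) or log2(FPKM + 0.1), removal of each heart's gene length trend (loess, span 0.5), other units for shares, and each heart left out. Nothing in the sources says that hearts came from separate litters, and p-values measure the spread between these hearts only.

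All members are named. From each list the genes past the threshold, the 3 with the smallest p and the 2 with the highest mean FPKM are named, and for Tnnt2 and Tnni1 the 5 most alike genes; 1 gene under this rule is not reported here. Members and lists (thin filament, thick filament, Z disc; markers of cardiomyocytes, skeletal and smooth muscle, epicardium, endothelium, erythroid cells and liver) were chosen with earlier results of these data known. Positions are from GENCODE M21 (GRCm38), and 6 of the 8 members had a RefSeq promoter.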

Additional observations from a re-analysis of the deposited data

How the results depend on the processing

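The number of troponin genes and of sarcomere genes past the threshold was 0 under every alternative run, including each heart left out and, added after the data were seen, the length trend removed without wild type replicate 5 or 3. DESeq2 called 133 genes in all, against 0 in edgeR, and edgeR called 34 without a filter, 6 with the length trend removed and 44 without wild type replicate 5. Tnnt1, Tnnt2, Tnnt3 and Tnni1 kept their sign under all 14 alternatives. Tnnc1, near 0, had a log2 fold change of -0.0022 with DESeq2's size factors and -0.0225 in both limma fits, and between -0.0807 and 0.14 with a heart left out. Leaving out a heart gave -0.10 to 0.21 for Tnni3 and -0.47 to 0.0871 for Tnni2. The ratio of troponin I to troponin T differed between genotypes by -0.0249 to 0.115 with a heart left out. The ratio of troponin C to troponin T differed by -0.0443 to 0.0287 with a heart left out, and by 0.0033 with the length trend removed. The cause of these changes was not tested beyond the hearts left out. The medians of the sarcomere lists moved with single hearts. That of the thin filament was 0.02 without wild type replicate 5 (0.01 with the length trend also removed) and 0.05 without mutant replicate 10, that of the thick filament -0.02 and 0.02, and that of the Z disc 0.01 in both cases; with the length trend removed from all hearts the thick filament median was 0.02. Shares per kilobase of annotated exon bases, added after the data were seen, gave a Tnnt1 difference of -5.94 percentage points. No paired analysis was run, because nothing in the sources used here pairs hearts across the genotypes. Tnnt3 had 201 to 737 counts per heart, and Tnnc2 had 0.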

Other observations

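Other sarcomere genes that change isoform around birth were read after the values were seen, as a description with no test. Myh6, the adult myosin heavy chain of the mouse ventricle and the atrial form before birth, made up 63.3%, 57.9% and 67.7% of the summed FPKM of Myh6 and Myh7 in wild type replicates 2, 3 and 5. In mutant replicates 1, 5 and 10 it made up 56.4%, 50.9% and 48.2%. All mutant hearts were below all wild type hearts, with means of 63.0% ± 4.92 and 51.8% ± 4.20 (SD, n = 3 each). The deposited lengths, 1554 bases for Myh6 and 4129 for Myh7, set the level of this share but not the order of the hearts. Before division by length, Myh7 was above Myh6 in CPM in every heart. The means were 3089 against 1911 CPM in wild type and 3843 against 1550 CPM in mutant hearts. Which of the pair made up more of the RNA thus rests on these lengths. Taken alone, Myh6 and Myh7 each had overlapping groups, and groups did not overlap for 11.2% of all genes tested. Wild type replicate 5, where long genes were counted low, had the highest share. The share was not computed with the length trend removed. With that trend removed the log2 fold changes were -0.31 for Myh6 and 0.29 for Myh7, against -0.30 and 0.32 as counted. Skeletal actin, Acta1, was 1.09% to 1.46% of the summed FPKM of Acta1 and Actc1 in wild type and 0.985% to 1.24% in mutant hearts, and the groups overlapped.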
